A study of Mus musculus with 2 samples.

Results

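The lymphatic spots of the SH045 section were 79 of the 788 Visium spots that held at least 1000 UMIs, out of 790 spots in that section. A spot is a small barcoded area that captures RNA from the tissue on it, and 1 UMI stands for 1 captured RNA molecule. Each spot was scored by its UMIs of Ccl21a, Lyve1 and Mmrn1, added together and divided by all UMIs of the spot, and spots at or above the 90th percentile of that score were taken. A spot can hold several cells of different types, so a lymphatic spot is an area in which these genes took a high share of the RNA and is not itself a vessel. The score threshold was 56.4 defining UMIs per 1000000 UMIs. The spots just inside it had 56.9 (2 of 35156 UMIs) and 57.4 (1 of 17411 UMIs), and those just outside 56.2 (1 of 17797 UMIs) and 55.8 (1 of 17907 UMIs), so 1 UMI could decide membership. The remaining 709 spots are the comparison throughout.

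The kidneys came from C57BL/6 mice in which the ureter of 1 kidney was obstructed, and were taken at day 7 after that surgery. In the wider study 3 mice received SH045, which blocks the cation channel TRPC6, and 3 received vehicle, and the opposite kidneys of the 3 vehicle mice were its controls. From each treatment 1 kidney was cut fresh frozen at 10 µm for the spatial assay, and those 2 sections, both labelled as obstructed, are used here. The single-cell libraries of the study are not analysed here, and the sources used here give no dose, sex or age of the mice.

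Each treatment thus has 1 section from 1 mouse. Spots of 1 section are not replicates, so no test was possible and no p-value is given. Levels are CPM, UMIs of a gene summed over a set of spots per 1000000 UMIs of that set, with the 3 defining genes left out of the total. Intervals are exact 95% Poisson intervals for levels and exact conditional binomial intervals for ratios. They cover counting error only. The spread within the section is shown by 4 position blocks of 197 spots, which held 22, 30, 18 and 9 lymphatic spots. The lymphatic spots had a median of 28570 UMIs (range 10610 to 49905) and the remaining spots 27573 (2545 to 72340). Kidney genes were present in the lymphatic spots, with Umod of the thick ascending limb at 1868 CPM and Slc34a1 of the proximal tubule at 676 CPM. The section labelled Vehicle was shallower, with a median of 5067 UMIs over its 659 spots used. The tubular injury gene Havcr1 stood at 992 CPM over the SH045 section and at 1.62 CPM, from 7 UMIs, over the section labelled Vehicle, which goes against the obstruction label of that section, so the sections are set side by side only.

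Lymphatic vessels drain fluid and immune cells from the interstitium of the kidney, where they run along the arteries, and they are known to multiply in obstructed and inflamed kidneys. Their endothelium secretes CCL21, which draws dendritic cells and T cells that carry its receptor CCR7, and displays LYVE1, a hyaluronan receptor of the thin-walled capillaries. MMRN1 is an extracellular matrix protein of lymphatic endothelium, PROX1 the transcription factor that sets lymphatic identity, and FLT4 the receptor for the growth factors VEGF-C and VEGF-D. Larger collecting vessels are wrapped by smooth muscle. Ccl21a is also made by stromal cells of lymphoid tissue, and Lyve1 by some tissue macrophages.

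The choice of lymphatic spots rested mainly on Ccl21a. The lymphatic spots held 412 of the 564 defining UMIs of the section, and Ccl21a supplied 91% of those 412. Ccl21a (ENSMUSG00000094686; GRCm38.p6 chromosome 4, 42772860 to 42773991) had 375 UMIs in 75 of the 79 lymphatic spots, against 139 UMIs in 134 remaining spots. Mmrn1 (ENSMUSG00000054641; chromosome 6, 60944317 to 60989378) had 28 UMIs in 19 lymphatic spots, against 6 UMIs in 6 remaining spots. Lyve1 (ENSMUSG00000030787; chromosome 7, 110850607 to 110862953) had 9 UMIs in 8 lymphatic spots, against 7 UMIs in 7 remaining spots. All 3 genes were seen together in 4 spots, and 4 lymphatic spots had no Ccl21a. The annotation lists 6 Ccl21 genes with near-identical sequences, of which only Ccl21a had any UMI, so the split of reads among those copies is uncertain.

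Each defining gene was also read in spots that the other 2 had chosen, a measure the choice did not use. Ccl21a stood at 218 CPM (95% interval 189 to 250) in the 36 spots chosen by Lyve1 and Mmrn1 alone, against 14.5 CPM (12.9 to 16.2) in the others, a ratio of 15.1 (12.6 to 18.0). Mmrn1 stood at 10.1 CPM in spots chosen by Ccl21a and Lyve1, against 0.594 CPM elsewhere, a ratio of 16.9 (8.02 to 37.5). Lyve1 stood at 3.70 CPM in spots chosen by Ccl21a and Mmrn1, against 0.396 CPM elsewhere, a ratio of 9.36 (3.06 to 28.6), from 8 UMIs on each side. The 3 genes thus lay in the same spots more often than in the rest of the section, beyond counting error.

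**Figure D1:**
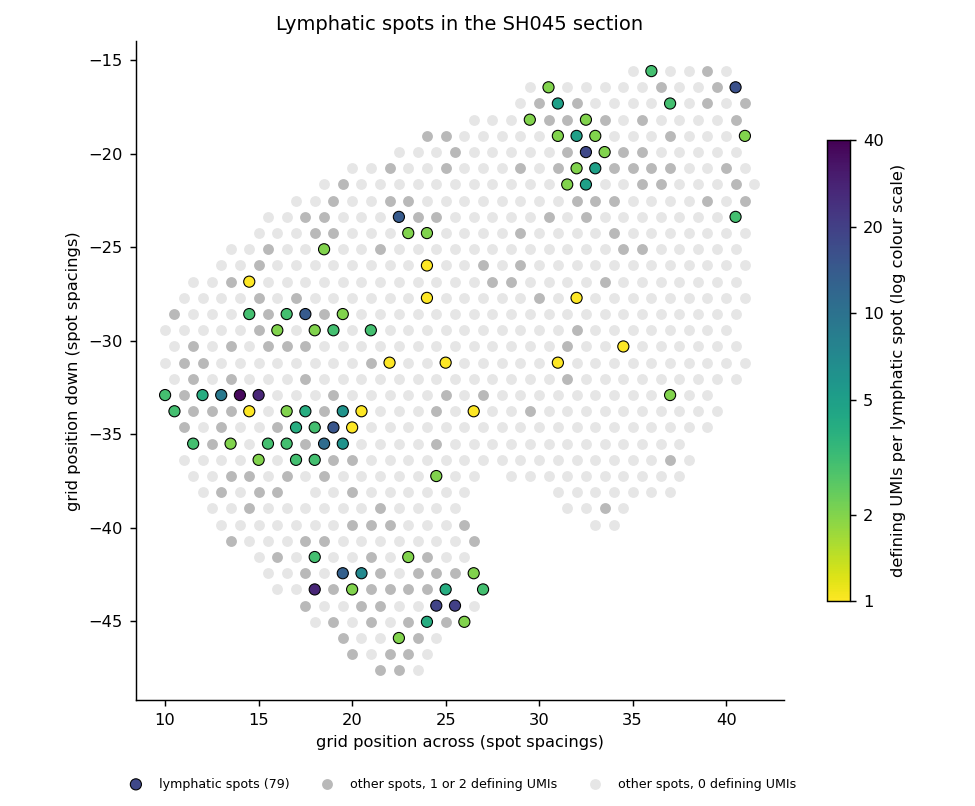
Position of the 788 spots of the SH045 section, in spot spacings across and down. Outlined points are the 79 lymphatic spots, coloured by their UMIs of the 3 defining genes on a log scale, and grey points are remaining spots with 1 or 2 such UMIs or with 0; the lymphatic spots lie in clusters at the left, top right and bottom as well as scattered alone.

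Lymphatic spots lay together more than the remaining spots lay beside them. Of the 79, 53 (67.1%) had a lymphatic spot as a direct neighbour on the grid, while 221 of the 709 remaining spots (31.2%) had one. They formed 36 connected groups, of which 26 were single spots and the largest held 15, 10 and 6 spots. They were not gathered at the edge of the section. The median distance from the section's edge was 5 grid steps for lymphatic spots and 4 for the remaining spots, and 16.5% of lymphatic spots and 15.5% of remaining spots lay on the outermost step.

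The lymphatic spots differed widely in how much defining RNA they held. The number of defining UMIs had a median of 3 and reached 37 in 1 spot. By that number, 12 lymphatic spots had 1, 42 had 2 or 3, 12 had 4 to 8 and 13 had 9 or more. The 12 spots with 1 UMI were shallow, with a median of 14923 UMIs per spot, while the other 3 tiers had medians of 30627, 31810 and 30058 UMIs. The 13 spots with 9 or more lay 1 to 9 steps from the edge, in 9 connected groups, with 5, 5, 2 and 1 of them in the 4 blocks. They held 218 of the 375 Ccl21a UMIs of lymphatic spots, 16 of the 28 of Mmrn1 and 6 of the 9 of Lyve1.

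Some other genes of lymphatic endothelium were higher in the lymphatic spots, with Flt4, Reln and Tbx1 highest in those 13 spots. Of 16 other lymphatic genes, 7 reached 5 CPM over the section and count as measured, and of these Flt4 and Sema3d were at least 1.5-fold higher and 0 were at least 1.5-fold lower. For comparison, 2.76% of the 11707 genes measured were higher and 3.67% lower by that fold. The median log2 ratio of the 7 genes was 0.10, beside -0.01 over all measured genes, and the summed level of all 16 was 268 CPM in lymphatic spots and 239 CPM in remaining spots, a ratio of 1.12 (1.03 to 1.22).

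Flt4 (chromosome 11, 49609679 to 49652739) stood at 46.8, 28.8, 14.7 and 35.7 CPM in the lymphatic spots of blocks 1 to 4, against 17.4, 19.2, 15.1 and 23.9 CPM in their remaining spots. It was higher in 3 of 4 blocks, and nearly level in block 3. Over the section it was at 30.0 CPM, against 18.4 CPM, a ratio of 1.63 (1.23 to 2.13). By tier it stood at 18.5 CPM in remaining spots without a defining UMI, 17.9 CPM in those with 1 or 2, then 16.8, 18.0 and 25.7 CPM in lymphatic spots with 1, 2 or 3, and 4 to 8 UMIs, and 84.0 CPM (56.7 to 120) in those with 9 or more. Without those 13 spots its ratio was 1.05, so the difference in Flt4 rested on them.

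Sema3d, a secreted semaphorin, was at 24.5 CPM in lymphatic spots, against 16.1 CPM, a ratio of 1.52 (1.12 to 2.04), and was higher in 4 of 4 blocks. Reln, which encodes the secreted glycoprotein reelin and marks collecting lymphatics, had 16 UMIs in lymphatic spots, against 47 in remaining spots, a ratio of 3.18 (1.68 to 5.71). It reached 22.4 CPM in the 13 richest spots, against 2.35 CPM in spots without a defining UMI. Tbx1, a transcription factor of the lymphatic lineage, had 6 UMIs, 5 of them in those 13 spots, against 7 UMIs in all remaining spots, a ratio of 8.0 (2.22 to 27.8).

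The transcription factor Prox1 could not be told apart between the sets at this depth. It had 5 UMIs in lymphatic spots and 41 in remaining spots, 2.31 and 2.03 CPM, a ratio of 1.14 (0.351 to 2.88), and 5.60 CPM (0.679 to 20.2) in the 13 richest spots from 2 UMIs. Pdpn, the membrane glycoprotein podoplanin that podocytes and fibroblasts also make, was at 52.6 and 53.0 CPM, a ratio of 0.994 (0.812 to 1.21). The receptor Nrp2 (1.10, 0.901 to 1.33), the integrin Itga9 (1.03, 0.837 to 1.25), the valve transcription factor Foxc2 (1.07, 0.751 to 1.499) and Fxyd6 (0.833, 0.609 to 1.12) also had ratios whose intervals include 1. Klhl4 had 3 and 32 UMIs, Ackr2 1 and 27 UMIs, and Nts 1 and 2 UMIs. Cldn11, Ackr4 and Scn3b had 0 UMIs in lymphatic spots, which allows up to 3 counts each, and 11, 2 and 3 in remaining spots. The label of the spots therefore rests on the overlap of Ccl21a, Mmrn1 and Lyve1 and on Flt4, Reln and Tbx1 in the richest spots, while Prox1 and Pdpn did not separate the sets. The summed list of other lymphatic genes did not single these spots out. Its ratio of 1.12 lay below those of spots chosen by smooth muscle, macrophage or collagen genes (1.63, 1.23 and 1.74, described below).

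**Figure D2:**
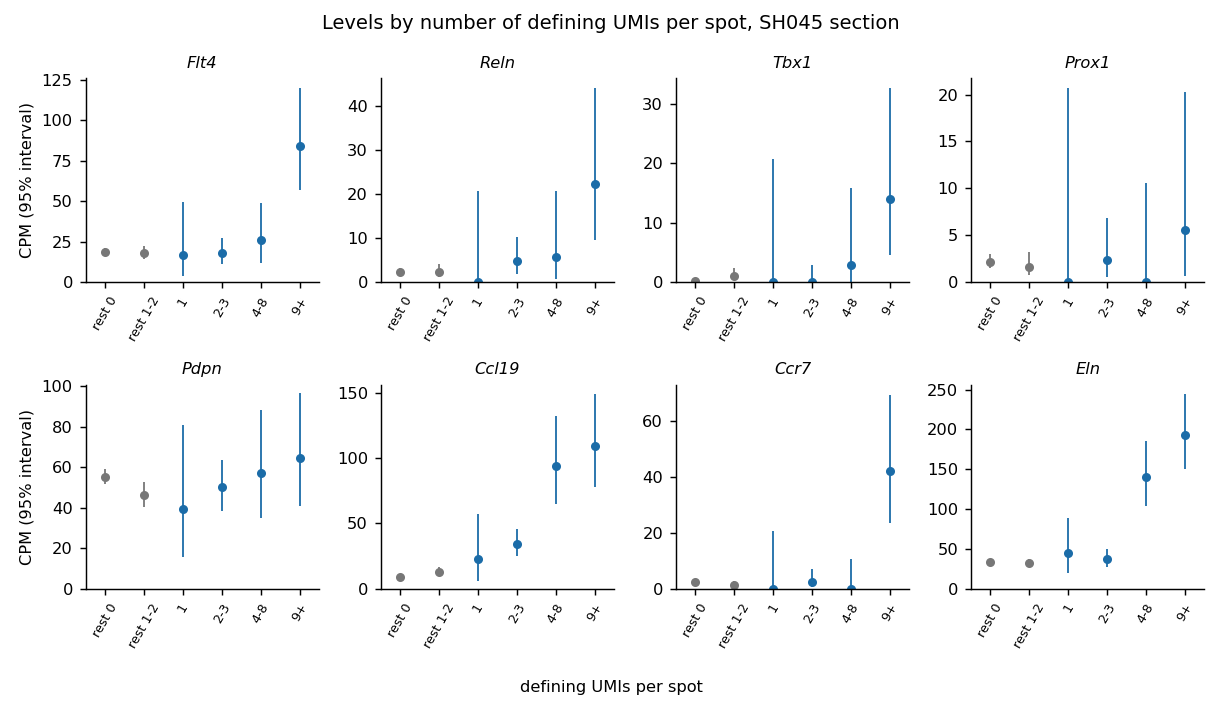
CPM with 95% counting intervals, on linear axes, of 8 genes by the number of defining UMIs per spot; grey points are remaining spots with 0 and with 1 or 2 defining UMIs, blue points are lymphatic spots with 1, 2 or 3, 4 to 8, and 9 or more. Flt4 and Ccr7 stand apart in the last tier at 84.0 and 42.0 CPM, while Ccl19 and Eln are also high in the tier before it and Pdpn has overlapping intervals throughout.

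Across all genes, 323 of 11707 were at least 1.5-fold higher in lymphatic spots and 430 at least 1.5-fold lower. In bulk RNA of spots, more or fewer cells of a type and more or less RNA per cell cannot be told apart. The 20 named genes of highest ratio included genes of vessel-sheath fibroblasts and elastic fibres (Lum, Mfap4, Eln, Fbln1), of contractile cells (Myh11, Rgs5) and of the distal nephron (S100g, Klk1, Slc8a1).

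Of the chemokines in the lists, Ccl19 was higher in lymphatic spots. Ccl19, the other ligand of CCR7 (chromosome 4, 42754525 to 42756365, next to Ccl21a), stood at 68.4, 69.7, 19.7 and 71.5 CPM in the lymphatic spots of blocks 1 to 4, against 9.75, 12.0, 10.4 and 5.05 CPM in the remaining spots. The lowest lymphatic block lay above the highest remaining block. Over the section Ccl19 was at 55.4 CPM in lymphatic spots, against 9.64 CPM, a ratio of 5.75 (4.54 to 7.25), with UMIs in 49 of the 79 spots and at most 12 in any of them. By tier it stood at 8.55 and 13.04 CPM in remaining spots with 0 and with 1 or 2 defining UMIs, and at 22.4, 34.4, 94.3 and 109 CPM in the 4 lymphatic tiers.

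Ccr7, their receptor, is named here after its values were seen. It had 18 UMIs in 7 lymphatic spots, against 39 UMIs in the remaining spots, 8.31 and 1.93 CPM, a ratio of 4.31 (2.32 to 7.71). Of the 18 UMIs, 15 lay in 4 of the 13 richest spots and 9 in 1 spot, and without the 13 spots the ratio was 0.860. Ltb, a lymphotoxin subunit made by lymphocytes, was 2.17-fold (1.37 to 3.33) and the B-cell survival factor Tnfsf13b 1.79-fold (1.26 to 2.49) higher in lymphatic spots. The list of lymphoid stroma and homing genes had 3 of 7 measured members higher and 0 lower, with a summed ratio of 1.10 and most of the sum from Vcam1 at 241 and 282 CPM, Icam1 at 184 and 167 CPM and Cxcl12 at 105 and 86.2 CPM. Cxcl13, the chemokine of B-cell follicles, had 0 UMIs in lymphatic spots and 3 in remaining spots.

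Of growth signals for lymphatic vessels, Vegfd was higher. It stood at 48.6, 72.1, 29.5 and 29.8 CPM in lymphatic spots of blocks 1 to 4, against 33.5, 29.0, 24.0 and 27.1 CPM in remaining spots, and over the section at 50.8 CPM, against 28.3 CPM, a ratio of 1.80 (1.45 to 2.20). Every block was higher, with a small gap in blocks 3 and 4. Vegfc, the other FLT4 ligand, had 11 and 81 UMIs, a ratio of 1.27 (0.609 to 2.39). The list had 1 of 8 measured members higher and 1 lower, Adm, which encodes adrenomedullin, at 0.659 (0.334 to 1.18) with an interval that includes 1, and a median log2 ratio of 0.09.

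Lymphocyte and plasma cell genes were higher in lymphatic spots, while macrophage genes were close to the rest. The T and NK cell list had 3 of 3 measured members higher, and all 18 members summed to 93.7 CPM in lymphatic spots, against 45.9 CPM, a ratio of 2.04 (1.75 to 2.38) from 203 and 928 UMIs. Trbc2, a T-cell receptor constant chain, stood at 19.8, 21.6, 11.5 and 23.8 CPM in lymphatic spots of blocks 1 to 4, against 7.60, 9.53, 6.58 and 2.13 CPM, so that the lowest lymphatic block exceeded the highest remaining block. The kinase Lck was 1.93-fold (1.21 to 2.96) higher and the CD3 subunit Cd3d, below the filter on low genes, 2.70-fold (1.60 to 4.39). By tier the T and NK sum was 41.9 and 58.3 CPM in remaining spots with 0 and with 1 or 2 defining UMIs, and 50.5, 84.3, 74.3 and 168 CPM in the lymphatic tiers. Among B-cell genes only Cd79b was measured, at 12.5 CPM in lymphatic spots and 7.02 CPM in remaining spots, a ratio of 1.78 (1.13 to 2.69). The B cell list's summed ratio was 2.02 (1.47 to 2.73), from 53 and 245 UMIs, and 1.21 with a score from Lyve1 and Mmrn1 only.

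Plasma cell genes summed to 6633 CPM in lymphatic spots, against 2633 CPM, a ratio of 2.52 (2.47 to 2.57), with 8 of 9 measured members higher and 1, Iglc1, lower at 0.416. Igha, the IgA heavy chain, stood at 3173, 3976, 2613 and 5075 CPM in lymphatic spots of blocks 1 to 4, against 1737, 1665, 1381 and 417 CPM in remaining spots. Every lymphatic block lay above every remaining block. A few spots carried much of this RNA: 1 lymphatic spot held 19.5% of the list's UMIs, and without it the list's ratio was 2.06. For Ighg2c, 357 of 651 lymphatic UMIs were in 1 spot, and for Iglc2 273 of 339.

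Macrophage genes summed to 4964 CPM in lymphatic spots and 4203 CPM in remaining spots, a ratio of 1.18, with 0 of 13 measured members past 1.5-fold in either direction. The antigen-presenting MHC class II genes had a ratio of 1.26 with 0 of 7 past that fold, led by Cd74 at 2209 and 1788 CPM. The perivascular macrophage list, of cells that also can make Lyve1, summed to 529 CPM in lymphatic spots and 493 CPM in remaining spots. Its ratio was 1.07 (1.01 to 1.14), with 0 of 4 measured members past the fold. The dendritic cell list stood at 1.16 (1.01 to 1.32).

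Smooth muscle genes were higher in lymphatic spots. Of 11 measured smooth muscle genes 6 were higher and 0 lower, with a median log2 ratio of 0.70 and sums of 1742 CPM, against 1142 CPM, a ratio of 1.52 (1.47 to 1.58). Cnn1, the actin-binding protein calponin 1 of contractile smooth muscle and chosen for mention after its values were seen, stood at 14.4, 34.9, 21.3 and 5.96 CPM in lymphatic spots of blocks 1 to 4, against 0.780, 5.91, 3.13 and 5.58 CPM in remaining spots, a ratio of 6.35 (4.36 to 9.18) over the section. It was higher in blocks 1 to 3 and nearly level in block 4. Myh11, the smooth muscle myosin heavy chain, was 2.86-fold (2.28 to 3.55) higher and Acta2, smooth muscle actin, 1.64-fold (1.55 to 1.74), each in 4 of 4 blocks. Rgs5, a regulator of G-protein signalling in pericytes, stood at 169 CPM, against 71.1 CPM, a ratio of 2.38 (2.12 to 2.68).

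Blood endothelial genes differed little as a list, and arterial ones more. The blood endothelium list had a ratio of 1.02 (0.982 to 1.07), with 1 of 16 higher, the tight junction gene Cldn5 at 1.68, and 1 lower, Tek at 0.646. Plvap, of fenestrated capillaries, was at 214 and 226 CPM. The arterial list had 2 of 4 measured members higher, Gja4 at 1.88 (1.18 to 2.88) and Sema3g at 1.71 (1.37 to 2.12), and a summed ratio of 1.46 (1.28 to 1.66). The venous list had a ratio of 1.0 (0.921 to 1.08) with 0 of 4 past the fold.

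Genes of vessel-sheath fibroblasts and elastic fibres were also higher. Of 12 measured adventitial fibroblast genes 8 were higher and 0 lower, with a median log2 ratio of 0.88, although the summed ratio of the whole list of 15 was 1.25 because Ly6a, at 2332 and 1940 CPM, made up most of the sum. Lum (chromosome 10, 97565501 to 97572703), the proteoglycan lumican that orders collagen fibrils, had the highest ratio of the 20 genes chosen by ratio among those of at least 20 CPM. It stood at 57.6, 109, 27.9 and 137 CPM in lymphatic spots of blocks 1 to 4, against 9.75, 12.8, 20.7 and 17.8 CPM in remaining spots, with all lymphatic blocks above all remaining blocks. Over the section it was at 75.3 CPM, against 15.3 CPM, a ratio of 4.91 (4.04 to 5.95), with 32 of its 163 UMIs in 1 spot. Mfap5 and Pi16, adventitial genes named after their values were seen, were 4.09-fold (3.09 to 5.37) and 3.11-fold (2.20 to 4.34) higher.

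Of 9 elastic fibre genes 3 were higher and 0 lower, and the sum was 8208 CPM, against 5831 CPM, a ratio of 1.41. Mfap4, a microfibril-associated glycoprotein, stood at 99.1, 102, 52.4 and 131 CPM in lymphatic spots of blocks 1 to 4, against 16.4, 25.2, 26.0 and 41.2 CPM, again without overlap, a ratio of 3.42 (2.89 to 4.04). Eln, elastin, stood at 193 CPM (150 to 245) in the 13 richest spots and at 140 CPM in those with 4 to 8 defining UMIs, while lymphatic spots with 2 or 3 had 37.5 CPM and spots without a defining UMI 33.0 CPM. The sum of the elastic fibre list was mostly Mgp, matrix Gla protein, at 6966 and 4877 CPM. Interstitial collagen genes differed less: the matrix fibroblast list had a ratio of 1.15, with 1 of 16 higher, Thbs2 at 1.68, and 1 lower, Col6a3 at 0.594. The other sheath genes among the 20 highest were Fbln1, Col14a1, Col8a1 and Ogn, at ratios of 2.22, 2.09, 2.03 and 1.93.

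Other genes of high ratio included Serpina3n, a serine protease inhibitor of the acute phase, at 153, 142, 59.0 and 137 CPM in lymphatic spots of blocks 1 to 4, against 21.6, 40.8, 30.6 and 20.7 CPM in remaining spots, a ratio of 4.15 (3.58 to 4.81). The blocks did not overlap. The complement gene C4b, the leukotriene C4 synthase gene Ltc4s, the muscle-type phosphoglycerate mutase gene Pgam2 and Spink8 had ratios of 2.36, 2.32, 2.41 and 2.32.

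**Figure D3:**
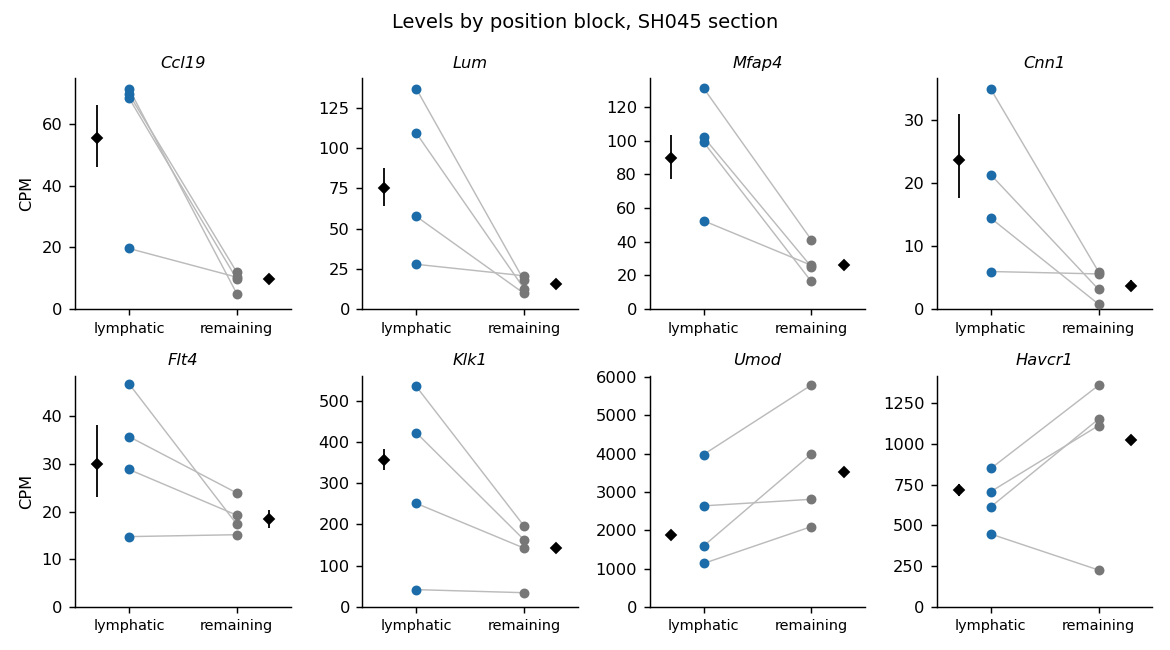
CPM of 8 genes in the lymphatic spots and the remaining spots of the SH045 section. Each joined pair of points is 1 of the 4 position blocks and diamonds are the section totals with 95% counting intervals; Ccl19, Lum and Mfap4 show no overlap between the spot sets, Flt4 and Klk1 overlap, and Umod is lower in the lymphatic spots of all 4 blocks.

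Genes of the distal nephron were higher in the lymphatic spots. All 5 measured genes of the distal convoluted and connecting tubule were at least 1.5-fold higher, with a median log2 ratio of 1.22, and the list of 6 summed to 1003 CPM, against 436 CPM, a ratio of 2.30 (2.20 to 2.41). S100g, a calcium-binding protein, stood at 391, 220, 676 and 107 CPM in lymphatic spots of blocks 1 to 4, against 135, 146, 180 and 33.5 CPM in remaining spots, a ratio of 2.90 (2.68 to 3.13). Klk1 (chromosome 7, 44225360 to 44229622), tissue kallikrein of the connecting tubule, stood at 535, 251, 423 and 41.7 CPM, against 196, 142, 163 and 34.3 CPM, a ratio of 2.51 (2.31 to 2.71). Within each block both genes were higher, but their level differed so much between blocks that the ranges overlap. Of the 771 Klk1 UMIs in lymphatic spots, 159 lay in 1 spot.

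The intercalated cell list had 4 of 4 measured members higher and a ratio of 1.91 (1.76 to 2.08), with the pendrin gene Slc26a4 at 2.38 (1.82 to 3.08) and the proton pump gene Atp6v1g3 at 2.08 (1.86 to 2.31). The ammonia transporter Rhbg and the sodium-calcium exchanger Slc8a1 were each 2.11-fold higher. Podocyte genes were also higher, with 4 of 5 past the fold and a ratio of 1.77 (1.63 to 1.93), led by Podxl at 136 and 73.5 CPM. Of the 676 podocyte UMIs in lymphatic spots, 100 lay in 1 spot, and without that spot the list's ratio was 1.54. Of 10 proximal convoluted tubule genes 2 were higher, the glucose transporter Slc5a2 at 2.09 (1.85 to 2.37) and Slc5a12 at 1.81, while the list's ratio was 1.08.

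Several genes of the medulla and of injured tubules stood at lower levels in lymphatic spots. Umod, which encodes uromodulin, stood at 2638, 1133, 1589 and 3979 CPM in lymphatic spots of blocks 1 to 4, against 2809, 2095, 3992 and 5794 CPM in remaining spots, and over the section at 1868 CPM, against 3535 CPM, a ratio of 0.529 (0.512 to 0.545). It was lower in 4 of 4 blocks, by little in block 1. The thick ascending limb list had 2 of 6 measured members lower and a ratio of 0.545, and Cldn19, a tight junction gene of that segment, had a ratio of 0.394 (0.308 to 0.499). Aqp2, the water channel of the collecting duct, had a ratio of 0.441 (0.376 to 0.515) and Slc14a2, the urea transporter of the inner medulla, 0.411 (0.323 to 0.516). The principal cell list that holds Aqp2 had 1 of 7 measured members lower and 1, the sodium channel subunit Scnn1g, higher at 1.66, with a ratio of 0.878 (0.825 to 0.934) and a median log2 ratio of -0.14. The proximal straight tubule list, of the outer medulla and medullary rays, had 4 of 6 lower and a ratio of 0.674.

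Havcr1, the tubular injury marker KIM-1, stood at 614, 850, 708 and 447 CPM in lymphatic spots of blocks 1 to 4, against 1153, 1360, 1113 and 226 CPM in remaining spots. It was lower in 3 blocks and higher in block 4, and over the section at 718 CPM, against 1022 CPM, a ratio of 0.703 (0.667 to 0.740), which does not reach the 1.5-fold mark. Lcn2, encoding lipocalin 2, had a ratio of 0.596 (0.567 to 0.626) and Krt20 0.467 (0.337 to 0.633). Spp1, osteopontin, was at 13080 and 17504 CPM, a ratio of 0.747 (0.738 to 0.756), and lower in 4 of 4 blocks. The injured tubule list had 2 of 12 lower and 0 higher, with a ratio of 0.837. The other genes among the 10 lowest were Alx1 (0.361), the matrix protease gene Mmp7 (0.394), Nqo1 (0.415), Sim2 (0.486), Inhbb (0.486) and the growth factor binding protein gene Igfbp5 (0.506).

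SH045 acts on TRPC6, and its gene was near the detection limit. Trpc6 had 4 UMIs in lymphatic spots and 34 in remaining spots, 1.85 and 1.68 CPM, a ratio of 1.10 (0.283 to 3.08).

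**Figure D4:**
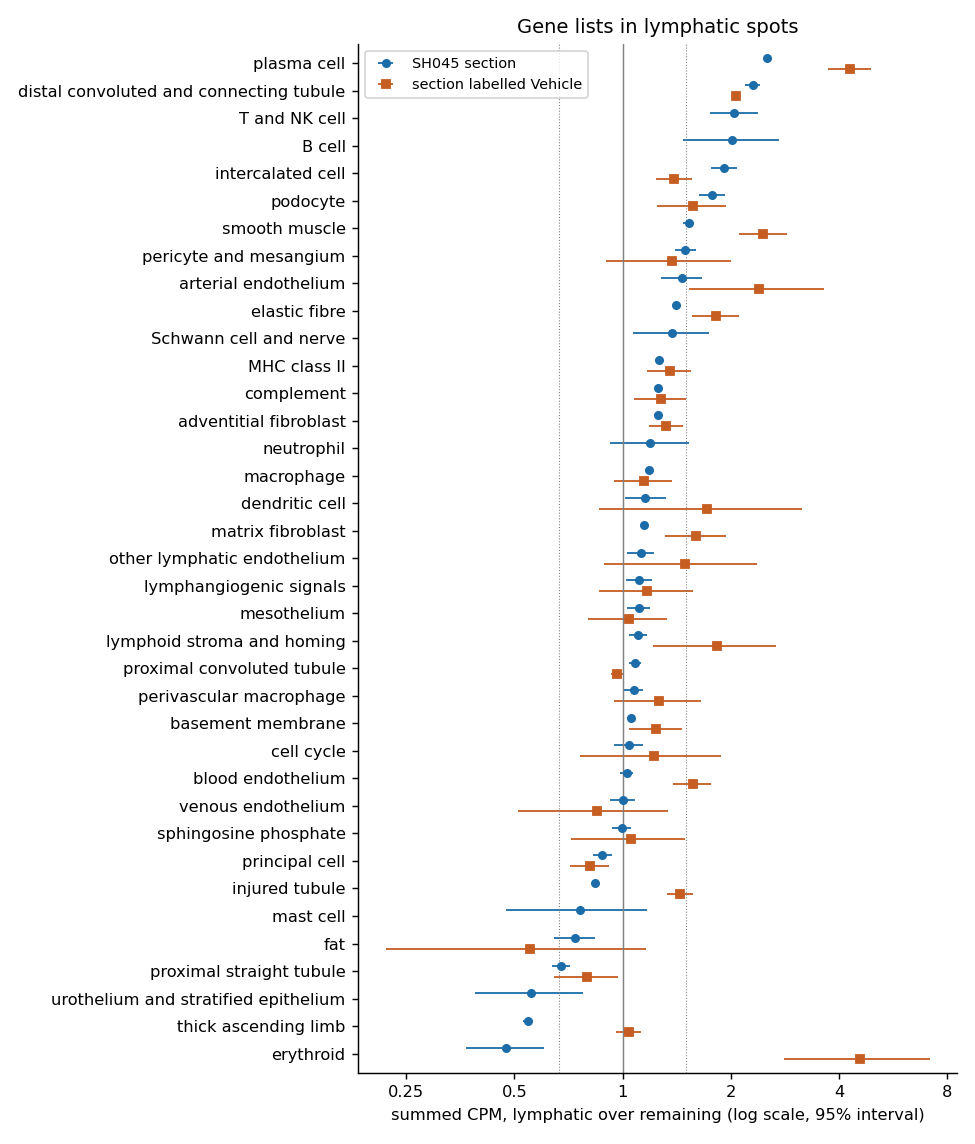
Ratio of summed CPM, lymphatic over remaining spots, with 95% counting intervals on a log axis, for each gene list in the SH045 section (circles) and the section labelled Vehicle (squares). Dotted lines mark 1.5-fold, and a list is drawn where it had at least 50 UMIs, 5 of them in lymphatic spots; plasma cell and distal tubule lists lie highest in the SH045 section at 2.52 and 2.30, and the erythroid list lies lowest at 0.474.

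How far the differences reached was read by grid distance from the nearest lymphatic spot, at 0 (79 spots), 1 (221), 2 (224), 3 (132) and 4 or more steps (132). Ccl19 stood at 55.4, 13.9, 8.10, 8.18 and 5.98 CPM, Lum at 75.3, 17.0, 15.0, 10.8 and 17.9 CPM, and Cnn1 at 23.6, 3.67, 3.67, 3.43 and 4.19 CPM. Ccl19, Lum and Cnn1 were high in the lymphatic spots themselves and much lower from the first step away. Other vessel-wall genes were high again far from them. Eln stood at 80.3, 30.6, 24.6, 20.3 and 67.3 CPM (58.8 to 76.7 in the last), and Myh11 at 49.9, 20.3, 16.8, 8.7 and 23.0 CPM. Klk1 stood at 356, 236, 117, 95.5 and 61.6 CPM and S100g at 384, 216, 117, 74.9 and 63.4 CPM, and Umod ran the opposite way, at 1868, 3039, 3329, 3924 and 4468 CPM. The levels of these tubular genes differed gradually over several steps. Havcr1 stood at 718, 938, 1092, 1194 and 854 CPM, and the T and NK cell list at 93.7, 50.3, 40.2, 42.5 and 52.3 CPM. Igha stood at 3471, 1200, 1211, 2351 and 875 CPM, so it was high again at 3 steps.

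**Figure D5:**
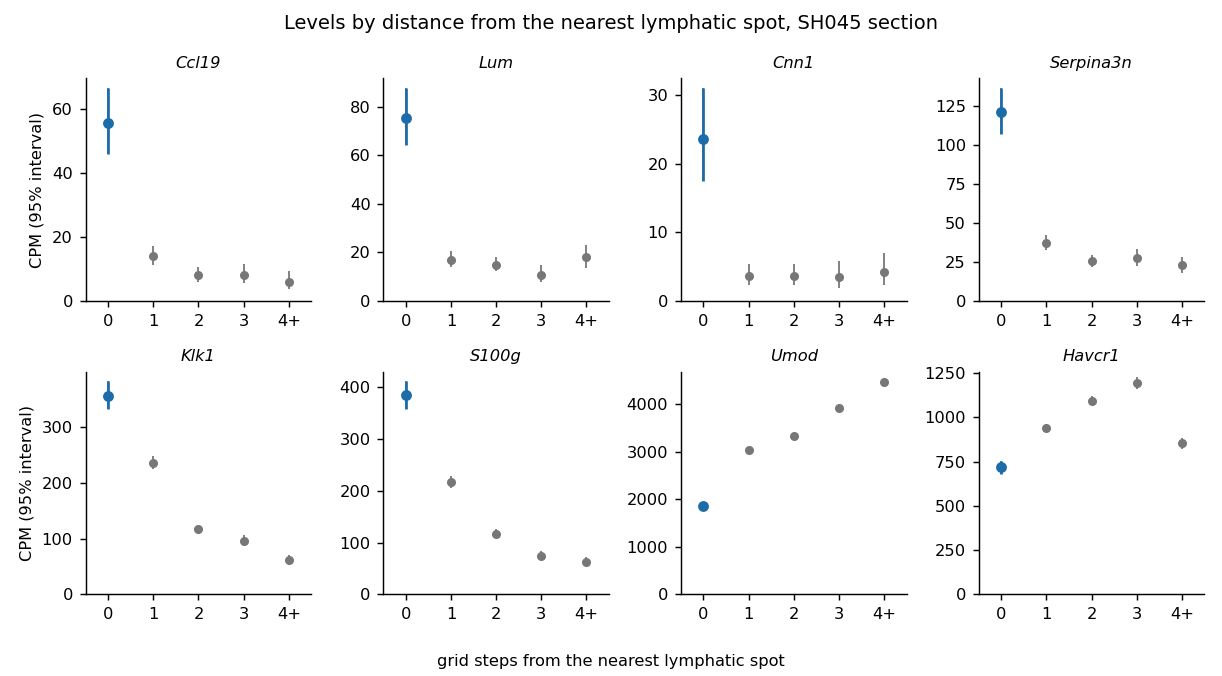
CPM with 95% counting intervals of 8 genes by distance in grid steps from the nearest lymphatic spot, where 0 is the lymphatic spots (blue) and 4+ is 4 or more steps. Ccl19, Lum, Cnn1 and Serpina3n are highest at 0 steps and much lower from 1 step on. Ccl19 and Serpina3n are still higher at 1 step (13.9 and 37.0 CPM) than at 2 steps (8.10 and 25.4 CPM). Klk1 and S100g decline step by step, and Umod stands at 1868 CPM at 0 steps and higher at each further step, with 4468 CPM at 4 or more.

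The lymphatic spots were set beside 3 other sets of 79 spots, the 10% with the highest share of smooth muscle, macrophage or fibrillar collagen genes. They shared 22 spots (27.8% of each set) with the smooth muscle set, 13 (16.5%) with the macrophage set and 9 (11.4%) with the collagen set. Each set was compared with its own remaining spots, so the values are given side by side with no comparison tested. Ccl19 had a ratio of 5.75 for the lymphatic spots, and of 3.96, 2.56 and 2.50 for the smooth muscle, macrophage and collagen sets. The sheath genes had ratios as high or higher in the collagen set, and Mfap4 and Eln in the smooth muscle set too, with Lum at 4.91 for lymphatic spots, and at 4.0, 1.59 and 5.49, Mfap4 at 3.42, and at 4.42, 1.75 and 4.13, and Eln at 2.45, and at 4.19, 1.45 and 6.57. Klk1 had 2.51 for the lymphatic spots, and 1.54, 0.483 and 0.310 for the other sets, and the plasma cell list 2.52, and 1.41, 1.74 and 1.14. The T and NK cell list had 2.04 for lymphatic spots and 2.34 for the macrophage set, and Cnn1 6.35 for lymphatic spots and 11.3 for the smooth muscle set, which Cnn1 did not choose. The B cell list had similar ratios in all of them, 2.02 for lymphatic spots and 1.85, 1.95 and 1.85 for the other sets. Low medullary RNA was not particular to the lymphatic spots. The thick ascending limb list had 0.545 for lymphatic spots, and 0.831, 0.456 and 0.677 for the other sets. The proximal straight tubule list had 0.674, and 0.514, 0.642 and 0.482, and the principal cell list 0.878, and 0.699, 0.81 and 0.451. The arterial list had 1.46 for lymphatic spots, and 2.08, 1.10 and 1.555 for the other sets. The podocyte list had 1.77 for lymphatic spots, and 1.66, 1.07 and 1.07 for the other sets. Ccl21a itself had a ratio of 7.23 (6.03 to 8.66) in the smooth muscle set. Without the 22 shared spots the smooth muscle list's ratio in lymphatic spots was 1.13, that of Flt4 1.08, that of Reln 1.04 and that of Cnn1 2.92, while the plasma cell, T and NK cell and distal tubule lists stood at 2.37, 1.84 and 2.03.

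The same rule applied to the section labelled Vehicle gave 34 lymphatic spots of 659. Their defining RNA was 59 UMIs of Ccl21a, 2 of Mmrn1 and 0 of Lyve1, with at most 8 in a spot, and the threshold was 0, so any spot with a defining UMI entered. These spots had a median of 6686 UMIs and the remaining spots 4944. There 15.7% of 10030 measured genes were higher and 18.0% lower by 1.5-fold, many from few UMIs. Ccl19 had 7 UMIs in lymphatic spots and 10 in remaining spots, a ratio of 9.94 (3.21 to 28.9). Its ratios were 10.95, 2.755 and 11.39 in the 10% of spots there richest in smooth muscle, macrophage and collagen genes. Those ratios rested on 8, 3 and 8 UMIs in the chosen spots. Ccl19 thus did not set the lymphatic spots apart from the smooth muscle and collagen sets in that section. The plasma cell list had a ratio of 4.28 (3.72 to 4.90), but 263 of its 273 lymphatic UMIs lay in the 24 spots with 1 defining UMI (1140 CPM), while spots with 2 or 3 and with 4 to 8 stood at 162 and 223 CPM, against 225 CPM in remaining spots. The smooth muscle list had a ratio of 2.46 (2.11 to 2.87) and the arterial list 2.40 (1.53 to 3.62). The distal convoluted and connecting tubule list had 2.06 (2.02 to 2.10), with Klk1 at 26850 and 10058 CPM, a ratio of 2.67. The 10% of spots there richest in smooth muscle, macrophage or collagen genes had Klk1 ratios of 2.25, 1.75 and 2.7. Their ratios for the distal tubule list were 1.88, 1.53 and 2.14. High distal tubule RNA thus did not single out the lymphatic spots in that section. The T and NK cell list had 7 and 32 UMIs, a ratio of 3.11 (1.16 to 7.16). Flt4 had 5 and 16 UMIs, a ratio of 4.44 (1.27 to 12.7), and Reln, Tbx1, Ccr7 and Lum had 0 UMIs in either set of spots. The thick ascending limb list had a ratio of 1.04 (0.961 to 1.12) there and 0.545 in the SH045 section, and the difference between the sections was not tested.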

How the data were processed

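The authors deposited, per section, whole-number UMI counts for every gene and spot, not normalized, made with Space Ranger 2.0.1 per the file headers and build mm10 per the submitters' processing notes. The annotation release was not given in the labels or headers. Each matrix lists 32285 genes, and the 2 sections share 335 spot barcodes, which name grid positions common to all slides. In the section labelled Vehicle the tissue flag marks 1210 spots, of which only 570 are among its 676 matrix spots, so all matrix spots were used.

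Counts were summed per spot set and scaled to CPM with Python 3.11.15, numpy 2.4.6, scipy 1.17.1 and pandas 2.3.3, and drawn with matplotlib 3.10.9; the code was tested on simulated data. A gene was measured at 5 CPM or more over all spots used, and called at 1.5-fold. Of several gene IDs under 1 symbol, the ID with most counts carries the symbol. No doublet caller was run, since a spot is not a cell. Gene positions are RefSeq's for GRCm38.p6. Members, 37 gene lists and tests were chosen with earlier results of these data known. Named genes are the defining genes, the other lymphatic list, the 20 highest and 10 lowest ratios among genes of at least 20 CPM that kept 1 direction in all 4 blocks (mitochondrial, ribosomal, haemoglobin, immunoglobulin and predicted genes left out), the 4 most abundant members of each list, Trpc6 and Havcr1. Members past 1.5-fold are also named to complete a list's count, and others are said to be chosen after their values were seen.

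Alternatives changed the score cut, score genes, spot depth, scaling, gene filter, fold, comparison spots, overlapping spots and position. Some items are not reported here.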

Additional observations from a re-analysis of the deposited data

Results flagged for a closer look

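Haemoglobin genes lay on opposite sides in the 2 sections. The erythroid list, 3 of whose members were measured in each, had a ratio of lymphatic over remaining spots of 0.474 (0.368 to 0.603) in the SH045 section, from 70 and 1378 UMIs with all 3 measured members lower, and of 4.56 (2.81 to 7.17) in the section labelled Vehicle, from 26 and 81 UMIs with all 3 higher. Of those 26 UMIs, 21 lay in the 6 spots with 2 or 3 defining UMIs (679 CPM), while the 24 spots with 1 stood at 21.7 CPM (7.04 to 50.6) and the 4 spots with 4 to 8 had 0 UMIs, against 20.1 CPM in remaining spots, so the ratio in that section rests on those 6 spots. The difference between the sections was not tested.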

How the results depend on the processing

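No paired analysis was possible because each treatment has 1 section. The number of genes higher in lymphatic spots was 323, that of genes lower in lymphatic spots 430, that of gene lists higher in lymphatic spots 7 and that of gene lists lower in lymphatic spots 3. With the top 5% of spots (40) these counts were 713, 859, 11 and 5. With the top 20% (158), 194 genes and 1 list were lower. A score from Lyve1 and Mmrn1 (36 spots) gave 616 higher and 698 lower genes. A minimum of 20 CPM gave 84 and 122, no filter 1955 and 1116, and a 2-fold mark 70 and 100 genes with 4 higher lists and 1 lower. Spots within 2 steps of the edge (18 of them lymphatic) gave 741 and 1655, and deeper spots 485 higher genes. Leaving out each block gave 376 to 433 higher and 451 to 702 lower genes, with 6 to 9 higher lists and 3 or 4 lower. The urothelium list, at 0.557, was at 1.15 in the top 20% and 1.06 in deeper spots, Aqp2, at 0.441, at 1.29 with the Lyve1 and Mmrn1 score, and Ccr7, at 4.31, at 0.662 near the edge and 0.860 without the 13 richest spots, an alternative chosen after seeing the data, as were leaving out members with 1 defining UMI and the richest spot of each list. The causes were not tested. Of the 7 higher lists, T and NK cell, plasma cell and distal tubule stayed past 1.5-fold under every alternative run (1.70 to 2.38, 1.53 to 5.0 and 1.77 to 3.11), and 0 of the 7 changed direction. Of 28 named higher genes, 16 stayed past 1.5-fold throughout, among them Ccl19 (3.91 to 8.19) and Lum (3.33 to 10.3). The changed gene filters and the 2-fold mark leave the ratio of a list or gene as it is. Those alternatives could therefore not move these ratios and say nothing about them. Low counts of Prox1, Tbx1, Reln and Ccr7 limit what they show, and 1 section cannot show variation between mice.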

Other observations

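Genes of nerve sheath had few UMIs in the lymphatic spots. Sox10, the Schwann cell transcription factor, had 5 UMIs in lymphatic spots and 5 in remaining spots, a ratio of 9.34 (2.15 to 40.6). The list's summed ratio was 1.37 (1.06 to 1.74) and 1.13 without the spot richest in it. Mbp, which other cells also make, was at 21.2 and 22.8 CPM.

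Several lists stood close to 1 in the SH045 section. Cell cycle genes summed to 232 CPM in lymphatic spots and 223 CPM in remaining spots, and the sphingosine phosphate genes, which include the exporter Spns2 at 260 and 262 CPM, had a ratio of 0.995. Complement genes had a ratio of 1.26, led by C3 at 1072 and 866 CPM. The neutrophil list had a ratio of 1.19 (0.919 to 1.53) and 0.817 without 1 spot that held 23 of its 71 UMIs. It moved with the spots chosen, to 2.36 within 2 steps of the edge and 0.639 with a score from Lyve1 and Mmrn1 only. Fabp4 was at 116 and 159 CPM, while the fat cell genes Adipoq and Plin1 had 0 UMIs in both sets, and the mast cell genes Mcpt4 and Tpsb2 likewise. The mesothelial gene Upk3b had 2 UMIs in lymphatic spots and 81 in remaining spots.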
